A study of Drosophila melanogaster with 4 samples.

Results

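A set of 233 genes was transcribed almost only in male larvae of Drosophila melanogaster. The set holds every gene whose level in normal males was at least 32-fold that in normal females (a difference of at least 5 in log2 of CPM + 1, where CPM is counts per 1000000 of a library), whose mean over the 4 groups was at least 10 CPM and whose name does not begin with Mst. Members were thus selected on the values of the normal larvae and on the mean, out of 14161 genes, of which 6308 had that mean level. RNA came from larvae of the third instar kept at 25 degrees, in 4 groups: normal females, normal males, trisomy 2L females and trisomy 2L males. The normal larvae are named Cantons in the design text of the series. Trisomy 2L larvae carry 3 copies instead of 2 of 2L, the left arm of chromosome 2. The labels name 4 biological replicates per group, and the files give only the authors' mean of each group, so no value below has an error or a p-value. The labels do not say how the trisomic larvae were bred, and strain and exact age within the instar cannot be told apart from karyotype.

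Male larvae of this stage carry a testis filled with primary spermatocytes. These cells grow for days in prophase and transcribe in advance most of what the later spermatid needs, because transcription largely stops with meiosis. Many of these transcripts come from testis copies of genes that other tissues also use, such as tubulins, translation factors and mitochondrial enzymes. Testis-specific counterparts of general transcription complexes, known as tMAC and tTAF, switch this programme on, and most of its RNAs are stored until spermatids form a tail, pack their nucleus and fuse their mitochondria. Female larvae have a small ovary with no such cells. In RNA of whole larvae, fewer spermatocytes and less RNA per spermatocyte cannot be told apart.

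The genes were abundant in normal males. Their level ran from 33.1 to 506 CPM with a median of 60.8 CPM, and together they made up 3.52% of the summed gene level in normal males and 0.0145% in normal females. In normal females the median was 0.182 CPM and 227 of the 233 genes lay under 1 CPM. The median ratio of male to female level was 351. These contrasts chose the genes and are given as a description; the same threshold was met by 3.84% of the 6308 genes, Mst genes included. The lowest value in the normal female column equals 1 read in each of 4 libraries (0.0167 CPM), so the female median corresponds to about 10.9 reads per library.

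**Figure D1:**
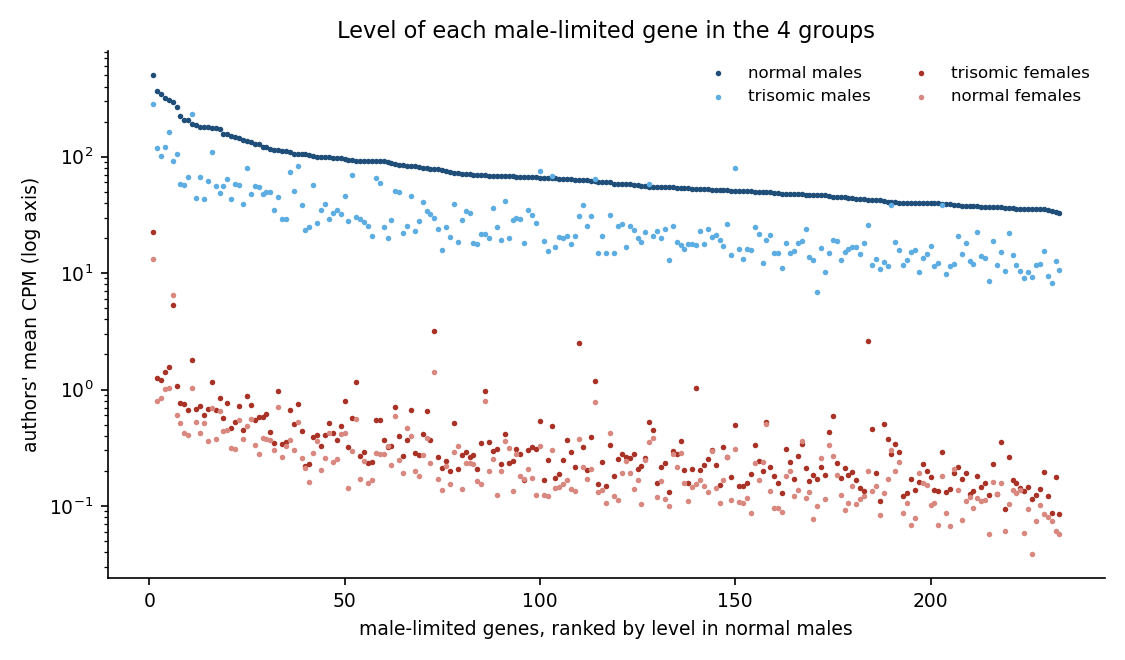
Level of each of the 233 male-limited genes, ranked by normal males, as the authors' mean CPM on a log axis; each gene has 1 point per group. The male points lie above the female points for all 233 genes, and the trisomic male points lie below the normal male line for 227 of them, against 59.4% of the 6308 genes of the minimum level.

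The highest value was that of roX1, a noncoding RNA of the MSL complex that raises transcription of the male X. It stood at 506 CPM in normal and 285 CPM in trisomic males, against 13.1 and 22.4 CPM in the corresponding females, and it is the member with the highest female level. It acts in somatic cells, unlike most other members with a known role, which serve the male germ line. The gene listed as SIP2 (now salto) had 345 CPM in normal and 100.5 CPM in trisomic males, with 0.851 and 1.21 CPM in the females. The RNA-localisation gene exu, which works in both oocytes and spermatocytes, had 298 CPM in normal and 91.3 CPM in trisomic males, and its 6.42 and 5.35 CPM in the females came next after roX1. CG8701 (224 to 58.7 CPM, log2 difference -1.91), CG15109 (207 to 57.5 CPM, -1.83) and CG5089 (206 to 66.96 CPM, -1.60), all on 2R and of unassigned role, complete the 10 highest with CG12699 and the 3 leucyl aminopeptidase genes described under their role. In all 10 the male groups lay far above the female groups, and the trisomic males lay below the normal males.

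Long transcripts gather more reads, so levels were also set per kilobase of the annotated transcript. On that scale CG12699 was highest, at 479 CPM per kilobase in normal males (367 CPM). It was followed by CG31740 at 246 and CG31226 at 236 CPM per kilobase, all short genes of unassigned role. CG12699 overlaps mbl on the other strand and CG31740 overlaps 3 other genes. roX1, whose transcript is longer, had 105 CPM per kilobase. The sperm gene ocn, a small protein gene of the janus family, had 184 CPM per kilobase.

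Most members are genes that were named only by a number. Such names were carried by 195 of the 233 (83.7%), against 48.8% of all 6308 genes of the minimum level. A match in the reference annotation was found for 232, of which 224 code for protein and 8 for long noncoding RNA. Only 16 of the 6308 genes were noncoding RNAs of this kind, and 7 of these 16 lie on the X. The male-limited set holds 8 of the 16, and 6 of these 8 lie on the X. They include roX1, CG32652 (97.5 CPM in normal and 35.1 CPM in trisomic males) and CR32690 (92.3 and 29.4 CPM). The 2L noncoding gene CG42850 stood at 37.6 and 22.6 CPM (-0.71), while CG9284 of 2R and the X genes CR32658, CR42767 and CR32661 had differences between -1.57 and -1.45. The genes were short and simply built: 73 of 232 (31.5%) had a single exon and 143 (61.6%) at most 2, against 9.18% and 26.5% of the genes of the minimum level. Their median coding length was 1126.5 bases, against 1434. The number of exons separated the change in trisomic males only slightly, with a median log2 difference of -1.62 for single-exon genes and -1.39 for genes with 3 or more.

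By position, 61 members lay on 2L, 59 on 3R, 52 on 3L, 42 on 2R and 19 on the X. The X held 8.15% of the set but 13.9% of all genes of the minimum level, and 2L held 26.2% against 20.1%. Per arm, male-limited genes were 4.80% of the 2L genes, 4.204% on 3L, 3.84% on 3R, 3.24% on 2R and 2.17% on the X. None of the 59 genes of chromosome 4 was among them. Of the 13 protein-coding X members, the level in normal males ran from 40.1 to 116 CPM. They include hydra, a testis gene (100.1 CPM in normal and 35.0 CPM in trisomic males), and TrxT, a thioredoxin found on the Y loops of spermatocytes (92.2 and 27.4 CPM). Of these 13, CG34434 differed least between the male groups and TrxT most.

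Some members stood side by side. In gene order, 39 of the 232 placed members formed 18 runs of neighbours, 15 of 2 genes and 3 of 3 genes. For these runs, and for the overlaps below, no share over all genes is given, so they are not shown to be particular to the set. The tail protein gene dj and its relative djl are adjacent to CG1979, and the spermatid chromatin genes CG7045 (tHMG1) and CG7046 (tHMG2) form a pair. Neighbours could differ: within the run CG9129, CG9130 and CG9133 the log2 difference in trisomic males ran from -1.87 to -0.43, and CG9130 and CG9133 overlap on the same strand. Pairs such as CG12860 and CG12861, at 179 and 188 CPM, or CG4712 and CG4714 may share reads if they are alike in sequence, which was not tested. CG33934 and Indy-2 overlap on the same strand and count as separate members. They stood at 52.6 and 52.3 CPM in normal males and at 17.68 and 17.66 CPM in trisomic males. The span of 95 members overlaps another gene, 65 of them on the other strand, and no source used here gives the strand setting of the authors' counts, so reads of overlapping genes cannot be told apart.

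In trisomic males the set was lower almost throughout. Of 233 genes, 221 (94.8%) were at least 1.5-fold lower than in normal males, a size reached by 29.5% of the 6308 genes of the minimum level, and 196 were at least 2-fold lower, against 11% of those genes. The median level was 60.8 CPM in normal and 21.5 CPM in trisomic males, with a median log2 difference of -1.50, against -0.18 for all genes of the minimum level. Summed over the set, the level was 18468 CPM in normal and 7360 CPM in trisomic males, or 3.52% and 1.498% of the summed gene level. Only Hsp60C was at least 1.5-fold higher, a size reached by 17% of all genes of the minimum level. Since the normal male column also chose the genes, the comparison is a description. The genes of 2R, 3L and 3R as a whole had a median of -0.31, and relative to it the members' median was -1.19, with 206 members at least 1.5-fold lower against 14.5% of all genes.

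**Figure D2:**
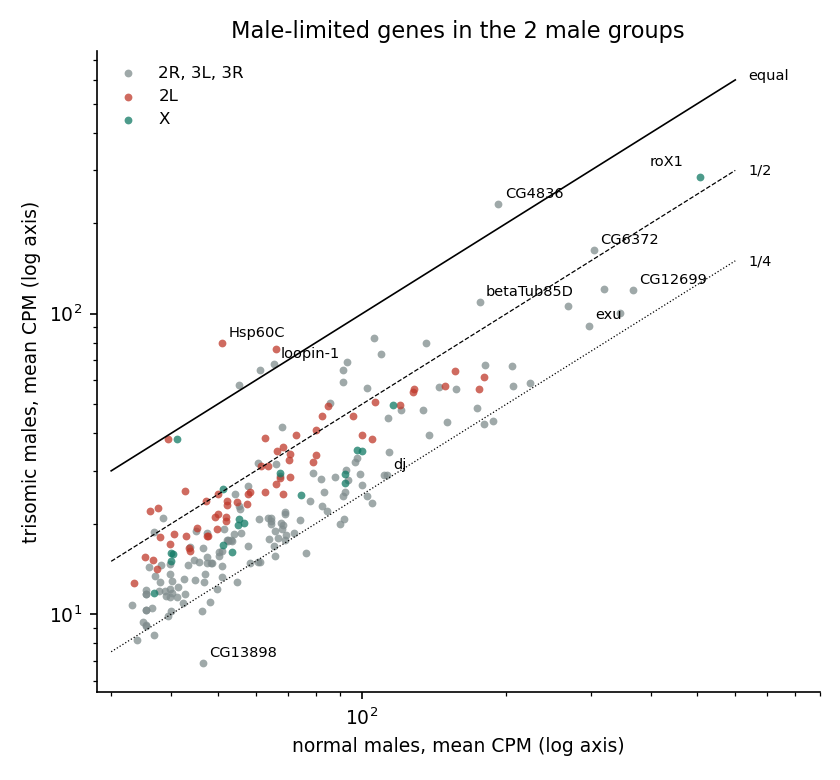
Level of each male-limited gene in normal males (horizontal) and trisomic males (vertical), as the authors' mean CPM on log axes, coloured by chromosome arm; lines mark equal levels and levels of 1/2 and 1/4. Most genes lie between the lines for 1/2 and 1/4, most 2L genes above most genes of the other autosomal arms, and 6 genes lie on or above the line of equal levels.

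The largest difference was that of CG13898 on 3L, from 46.6 CPM in normal to 6.87 CPM in trisomic males (log2 difference -2.60). The next 4 were CG30039 (76.4 to 15.9 CPM, -2.19), CG18449 (90.1 to 19.95 CPM, -2.12), the dynein light chain gene robl62A (105 to 23.4 CPM, -2.12) and CG31226 (91.7 to 20.8 CPM, -2.09). In all, 12 members had a change of -2 or lower, and none of these lies on 2L. The share of all genes with a change of that size is not given here. The size of the change hardly followed the level: among the 153 members of 2R, 3L and 3R, the 51 genes of lowest level in normal males (33.1 to 48.7 CPM) had a median of -1.63, the 51 in the middle -1.62 and the 51 of highest level (79.0 to 367 CPM) -1.60.

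Members on 2L, the arm with the extra copy, were less low than the others. For the 61 members the median log2 difference was -1.18, against -1.62 for the 153 members on 2R, 3L and 3R. As plain ratios of trisomic to normal males, the 2L median was 0.431 and that of the other arms 0.311, so the 2L ratio was 1.39-fold the other. The ranges between the quartiles did not overlap, with quartiles of 0.405 and 0.501 on 2L and 0.276 and 0.361 elsewhere. Of the 61 2L genes, 60 lay above the median of the other arms, the exception being CG31948 (-1.63). Over all genes of the minimum level the same ratio of medians was 1.34-fold, over 1270 genes of 2L and 4069 of the other arms. The X members had a median of -1.43 and a ratio of 0.361.

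**Figure D3:**
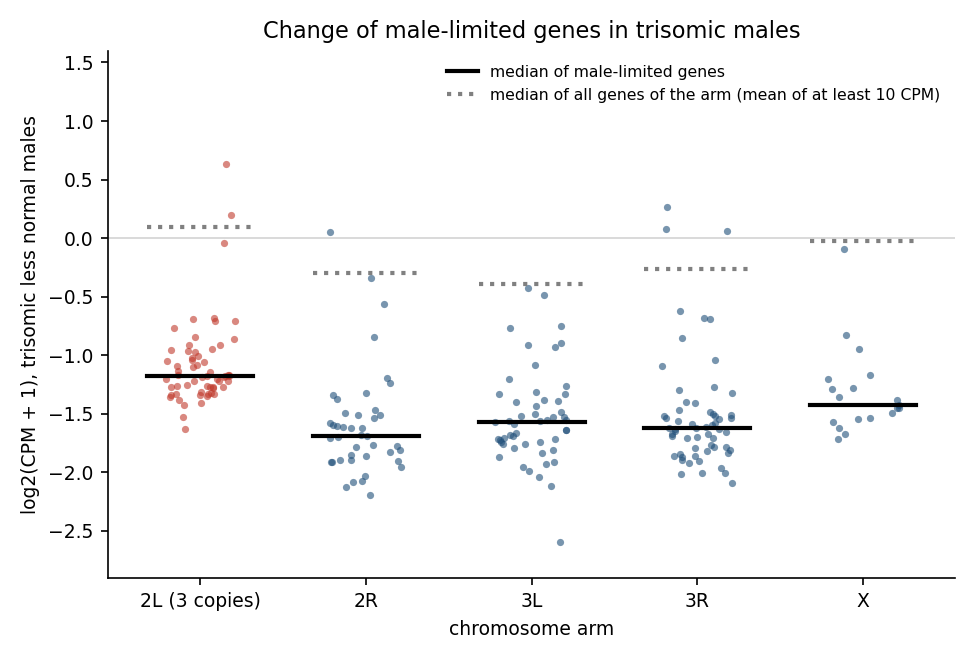
Difference in log2(CPM + 1) between trisomic and normal males for each male-limited gene, by chromosome arm; solid bars are the medians of these genes and dotted bars the medians of all genes of the arm of the minimum level. The 2L points centre on -1.18 and those of 2R, 3L and 3R on -1.69, -1.57 and -1.62, while the dotted bars lie between -0.39 and 0.10.

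This arm difference depended on where the genes were chosen. With the threshold set on the mean of both karyotypes, 130 genes gave a 2L excess of 0.46 on the log2 scale, close to the 0.44 of the full set. With the threshold set on trisomic larvae, only 34 genes were left, and the 11 of 2L had a median of -1.18 against -0.87 for the 22 of 2R, 3L and 3R, so the difference turned to -0.31. That choice uses the trisomic male column in place of the normal one.

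Known roles were looked up for 54 members, and 50 of these were lower in trisomic males by 1.5-fold or more, beside 29.5% of all genes of the minimum level. The groups were formed after the values were seen and are descriptions.

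The tail and its microtubules were represented by 11 genes, all at least 1.5-fold lower in trisomic males, and their median change was -1.59. The tail protein gene dj stood at 113 CPM in normal and 28.99 CPM in trisomic males (-1.92), with 0.261 and 0.342 CPM in the females. Its relative djl stood at 48.7 and 14.8 CPM in the males (-1.66). Dynein and its assembly were represented by robl62A (105 to 23.4 CPM), the intermediate chain gene CG4323 (Dic2, 56.0 to 18.6 CPM, -1.54) and the assembly factor gene CG5048 (Dnaaf6, 68.6 to 19.8 CPM, -1.74). The kinesin gene Klp59C, which moves chromosomes in division, stood at 43.8 and 16.7 CPM (-1.34), and the actin-related gene Arp53D of the testis at 50.4 and 16.1 CPM (-1.59). Between these genes the difference ran from -2.12 for robl62A to -1.34 for Klp59C. The testis gamma-tubulin ring gene CG7716 (t-Grip84) stood at 48.2 and 10.97 CPM (-2.04), and its 2L partner CG18109 (t-Grip91) at 47.7 and 18.3 CPM (-1.34). The beta-tubulin of spermatocyte spindles and sperm tails, betaTub85D, stood at 176 and 109 CPM in the males and at 0.689 and 1.17 CPM in the females, and its change of -0.68 was the smallest of the group.

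All 7 genes of the spermatid nucleus and of spermatid differentiation were lower by 1.5-fold or more, some of them near the median of the set. The 4 chromatin genes had a median of -1.79, and the HMG-box genes CG7045 (tHMG1, 55.002 to 12.8 CPM) and CG7046 (tHMG2, 61.2 to 14.98 CPM) differed by -2.02 and -1.96. The transition protein gene Tpl94D stood at 50.4 and 15.7 CPM (-1.62), and CG5017 (mil), a gene of the nucleosome assembly protein family, at 97.6 and 33.1 CPM (-1.53). Among genes of differentiation, soti, an inhibitor of a ubiquitin ligase in spermatids, differed by -1.81 (82.6 to 22.8 CPM). The spermatid gene fan, of the VAP family, differed by -1.72 (57.9 to 16.9 CPM), and the comet-and-cup gene w-cup, whose RNA lies at the end of the growing tail, by -1.53 (179 to 61.5 CPM).

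Mitochondria and metabolism gave 16 genes, of which 15 were at least 1.5-fold lower, with a median of -1.51. The mitofusin gene fzo, which fuses spermatid mitochondria, stood at 67.7 CPM in normal and 20.2 CPM in trisomic males (-1.70), and at 0.313 and 0.234 CPM in the females. The cytochrome oxidase copy CG10396 (COX4L) differed by -1.95 (49.9 to 12.2 CPM), and the aconitase copy CG4706 (mAcon2) by -1.54 (53.4 to 17.7 CPM). The glutamate dehydrogenase copy CG4434 (bb8) differed by -1.50 (54.1 to 18.4 CPM), and the ATP synthase copy CG7813 (knon) by -1.19 (67.3 to 28.9 CPM). Among other metabolic genes, the carbonic anhydrase gene CG12309 (CAH13) differed by -1.86 (100.2 to 26.9 CPM), the sugar transporter gene sut4 by -1.77 (68.2 to 19.2 CPM) and the 2L catalase gene CG9314 (CatB) by -0.84 (82.6 to 45.7 CPM). The hexokinase copy Hex-t2 differed by -1.40 (37.0 to 13.4 CPM), and the malic enzyme copy Menl-2 by -1.51 (43.3 to 14.6 CPM). Hsp60C, a mitochondrial chaperonin gene on 2L, was the exception, at 51.1 CPM in normal and 79.9 CPM in trisomic males (0.64), with 0.307 and 0.499 CPM in the females.

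The 8 genes of RNA handling and translation lay in 2 ranges. The cap-binding factor genes eIF4E-3 (52.4 to 17.5 CPM), eIF4E-4 (35.5 to 10.3 CPM) and eIF4E-5 (47.5 to 15.6 CPM) had changes of -1.53, -1.69 and -1.55, and exu one of -1.69. The other 4 lay between -0.91 and -0.69. They are the poly(A) polymerase gene Gld2 (68.0 to 41.8 CPM, -0.69), CG9975 (fest), which acts on translation in spermatocytes (102 to 56.5 CPM, -0.84), the initiation factor copy CG1340 (eIF4H2, 38.5 to 20.9 CPM, -0.85) and the double-stranded RNA binding gene CG10630 (blanks, 60.8 to 31.8 CPM, -0.91).

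Of 4 genes of signalling and regulation, the nuclear transport GTPase copy ran-like was lowest (36.8 to 8.53 CPM, -1.99). The testis kinase gene CG14305 (Tssk) differed by -1.51 (60.9 to 20.7 CPM), the ubiquitin ligase gene sinah by -1.21 (45.0 to 18.95 CPM) and the adenylyl cyclase gene ACXC, on 2L, by -0.97 (50.1 to 25.1 CPM).

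The leucyl aminopeptidases, among the most abundant proteins of sperm, differed less between the male groups. The 7 members had a median of -0.76, and 4 of them were at least 1.5-fold lower. S-Lap1 (CG6372) stood at 304 CPM in normal and 163 CPM in trisomic males (-0.90), S-Lap3 (CG32063) at 268 and 106 CPM (-1.33), and S-Lap4 (CG32064) at 320.2 and 120.8 CPM (-1.40). These 3 had 0.609 to 1.02 CPM in normal and 1.08 to 1.56 CPM in trisomic females, so the groups of the sexes were far apart. S-Lap2 (CG32351) stood at 136 and 79.7 CPM (-0.76). S-Lap7 (CG13340) with 109 and 73.7 CPM (-0.56), S-Lap8 (CG4439) with 106 and 83.1 CPM (-0.34) and loopin-1 with 65.6 and 67.98 CPM (0.05) lay within 1.5-fold. None of the 7 is on 2L, and members of this family may share reads where they are alike in sequence.

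**Figure D4:**
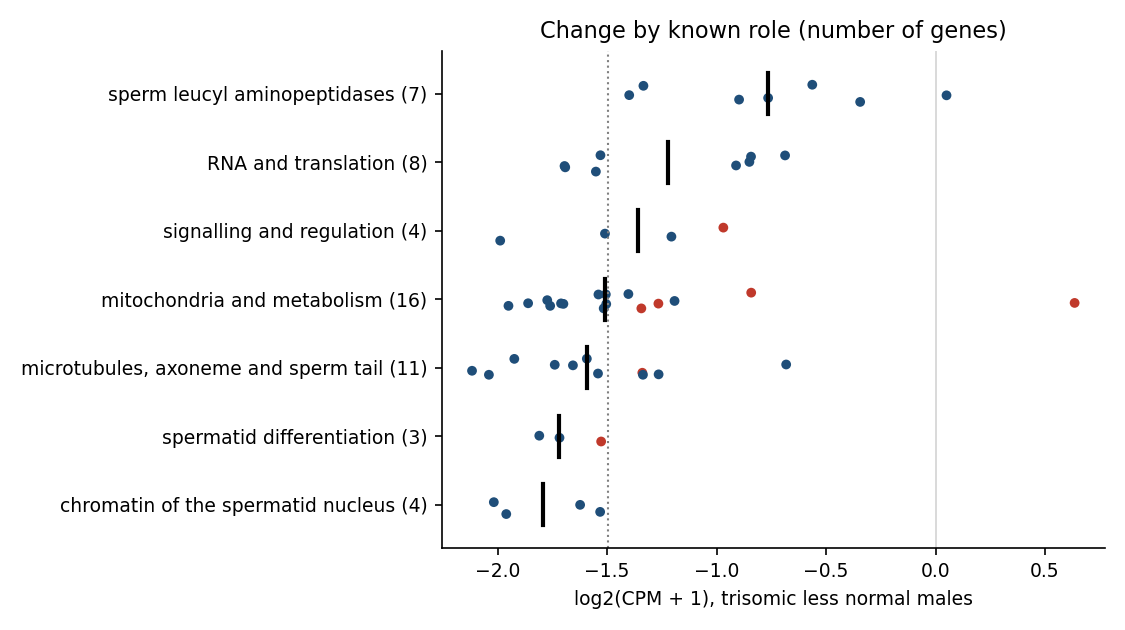
Difference in log2(CPM + 1) between trisomic and normal males for members with a known role, by role; black bars are group medians, red points are 2L genes and the dotted line is the median of all 233 genes (-1.50). The leucyl aminopeptidases spread from -1.40 to 0.05, and the 4 chromatin genes lie between -2.02 and -1.53.

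Only 12 members were within 1.5-fold or higher in trisomic males, and 3 of these lie on 2L. Beside Hsp60C they include CG4836 on 3R (192 to 232 CPM, 0.27), CG3213 on 2L (66.0 to 76.1 CPM, 0.20), CG31538 (61.3 to 64.8 CPM, 0.08), CG7886 (55.4 to 57.9 CPM, 0.06) and loopin-1. CG34434 on the X (41.1 to 38.4 CPM, -0.09), CG17098 (now dbf) on 2L (39.5 to 38.2 CPM, -0.05), and the neighbours CG9130 (93.0 to 68.9 CPM, -0.43) and CG9133 (91.3 to 64.95 CPM, -0.48) complete them with S-Lap7 and S-Lap8. In trisomic larvae their male level was still at least 55.3-fold the female level, with a median of 125-fold.

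The sex difference was measured again in trisomic larvae, whose columns set no part of the 32-fold threshold but entered the mean of at least 10 CPM. All 233 genes were at least 4-fold higher in trisomic males than in trisomic females, a size reached by 6.25% of the genes of the minimum level. Both male means exceeded both female means for every member, against 17.7% of all genes. The rule itself set normal males above normal females for the members, so this second count is only a description. The median difference was smaller than in normal larvae, at 86.5-fold against 351-fold as a plain ratio, and at 4.14 (range 2.75 to 6.38) against 5.65 in log2(CPM + 1). How many members again reached 32-fold depended on the pseudocount, since the female values are far below 1 CPM. With the pseudocount of 1 it was 33 members (14.2%), against 0.571% of all genes, and as a plain ratio it was 222 members, against 5.09% of all genes. On the log2(CPM + 1) scale only Hsp60C had a larger difference in trisomic larvae (5.75) than in normal ones (5.32), and its plain ratio was 160.2 against 166. With its pseudocount of 1, the rule applied to trisomic larvae gave 34 genes, 33 of them members (97.1% of the 34 and 14.2% of the 233). The remaining gene was the chaperonin gene Hsp60B, on 2L like Hsp60C, with 26.5 CPM in normal and 44.7 CPM in trisomic males.

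**Figure D5:**
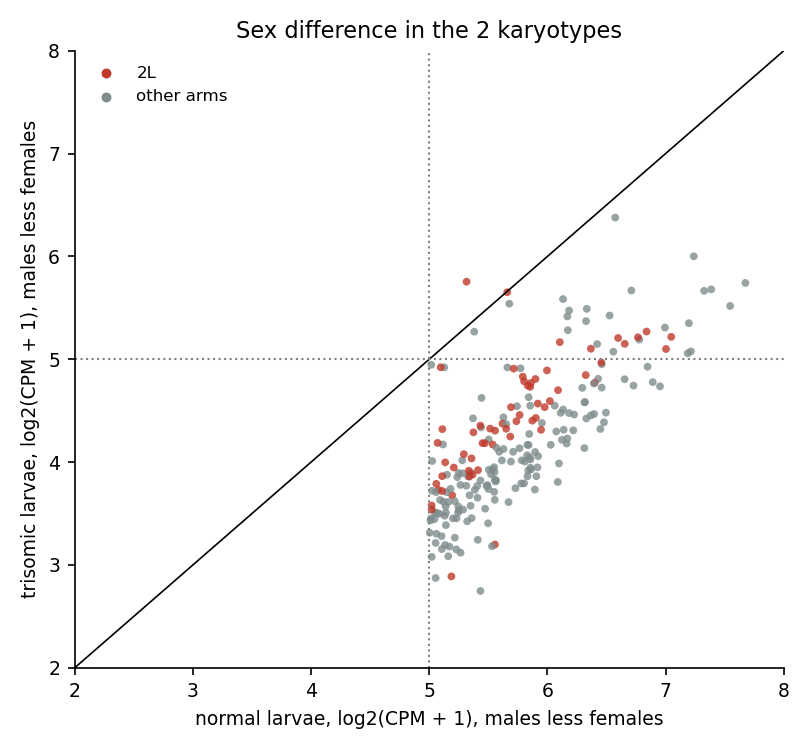
Sex difference of each male-limited gene, as males less females in log2(CPM + 1), in normal (horizontal) and trisomic larvae (vertical); the solid line marks equal differences and the dotted lines the 32-fold threshold of 5, which chose the genes on the horizontal axis only. Of the 233 points, 33 lie above the horizontal dotted line and the range on the vertical axis is 2.75 to 6.38.

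In females the members were near the lowest levels that the files hold, and the 2 female groups differed little in absolute terms. In trisomic females the median was 0.275 CPM, against the 0.182 CPM of normal females, or about 19.3 against 10.9 reads per library. The trisomic value was the higher for 220 of the 233 genes, against 46.4% of all genes of the minimum level, and the median ratio was 1.49. As a plain ratio 112 members were at least 1.5-fold higher in trisomic females, against 18.7% of all genes, and 1 was 1.5-fold lower, against 20.1%. On the log2(CPM + 1) scale 5 members were at least 1.5-fold higher, against 15.3% of all genes, but 210 of the 233 lay under 0.5 CPM in normal females and cannot be 1.5-fold lower on that scale, so its counts do not describe them. Female levels followed male levels across the 233 genes, with a Spearman rho of 0.76 in normal and 0.84 in trisomic larvae. Over all 6308 genes of the minimum level rho was 0.75 and 0.89, so the relation is not particular to the members, whose threshold ties both axes in normal larvae. The summed female level was 0.0145% of the gene total in normal and 0.0238% in trisomic larvae, or 0.0120% and 0.0193% without roX1.

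Genes on either side of the threshold had like levels. Just inside lay CG13457 (35.5 CPM in normal males, sex difference 5.02), CG13747 (33.1 CPM, 5.01) and CG30393 (35.5 CPM), and just outside CG17744 (33.3 CPM, 4.99), CG12376 (32.8 CPM, 4.99) and CG33322 (33.6 CPM, 4.99). The 9 Mst genes left out by name had 37.9 to 236 CPM in normal males, and their changes in trisomic males ran from -2.02 to -0.89 with a median of -1.61. CG31907, now named Mst27D, stayed in the set under its deposited name, at 80.2 CPM in normal and 34.0 CPM in trisomic males (-1.22).

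Other genes of spermatogenesis were taken from 11 gene lists, which hold 22 members beside roX1. None of the 14 regulators of the spermatocyte programme and of meiosis was a member, and only the translation regulator bol and the meiotic phosphatase gene twe reached the mean of 10 CPM. bol stood at 93.8 CPM in normal and 27.9 CPM in trisomic males (-1.72), and twe, on 2L, at 37.2 and 19.4 CPM (-0.91). The tMAC gene aly stood at 6.57 and 3.87 CPM (-0.64) and topi at 9.81 and 9.13 CPM (-0.09). The tTAF genes can and sa stood at 14.2 and 6.58 CPM and at 9.53 and 4.41 CPM (-0.96 for sa). Over all 14 the median was -0.64, nearer to 0 than that of the male-limited set. Of the 14, 12 were lower in trisomic males by any amount. Rbp4 (9.52 to 10.8 CPM, 0.17) and the 2L tMAC gene tomb (1.03 to 1.94 CPM, 0.53) were higher. For low genes the pseudocount of 1 draws a change towards 0, and its part in the smaller median was not tested.

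Testis forms of the proteasome had low levels too, from 3.60 to 33.3 CPM in normal males over 12 genes. Rpt6R, the only one with a mean of 10 CPM, stood at 33.3 and 14.5 CPM (-1.14), and the median of all 12 was -1.12. Below that mean, Rpn12R stood at 24.5 and 8.24 CPM (-1.46) and the 2L gene Prosalpha6T at 20.7 and 9.06 CPM (-1.11). Of the 12, 11 were lower by any amount, and Prosbeta2R2 was higher (4.93 to 6.42 CPM, 0.32). Of 26 mitochondrial and energy genes, 9 reached the mean of 10 CPM. Of these 9, 8 were at least 1.5-fold lower and none was 1.5-fold higher. The pyruvate kinase copy CG12229 stood at 56.5 and 17.2 CPM (-1.66), but the 2L gene Porin2 at 25.5 and 24.8 CPM (-0.04). Below that mean, CG5389 (ATPsynbetaL) stood at 5.82 and 13.2 CPM (1.06) and CG2964 at 8.23 and 11.3 CPM (0.42). Of all 26, 24 were lower by any amount, with a median of -1.17. Of 18 tail and axoneme genes 7 reached the mean of 10 CPM, and 6 of these were lower by 1.5-fold or more. The exception among the 7 was the 2L cation channel gene Pkd2 of sperm, at 29.2 and 34.5 CPM (0.23). Of all 18, 15 were lower by any amount, with a median of -0.47, against -1.69 for the 7. Below that mean, Tektin-A stood at 17.7 and 16.1 CPM (-0.13) and Dhc98D at 12.8 and 13.2 CPM (0.04). Of 15 comet-and-cup genes 7 reached that mean and 6 were lower, among them schuy at 32.1 and 9.94 CPM (-1.60), while m-cup stood at 34.2 and 29.6 CPM (-0.20). Of 14 translation and export genes 6 reached it and 4 were lower, and of 12 phosphatases and kinases 3 reached it and all 3 were lower. Over all genes of these last 3 lists the medians were -1.28, -0.89 and -1.18. The share at least 1.5-fold lower among all genes of the minimum level was 29.5%.

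Markers of other cells of the testis gave a mixed picture, and most of these genes are also used in other larval tissues. Summed over 11 germ cell genes not limited to spermatocytes, the level was 305 CPM in normal and 307 CPM in trisomic males, with 273 and 266 CPM in females. This sum came mostly from tud, at 227 and 174 CPM in the males, and Rbp9, a 2L gene also active in neurons, at 33.2 and 98.4 CPM (1.54). No other gene of the list reached the mean of 10 CPM, and no sum over the whole list can therefore stand for germ cells. Of all 11 genes, 7 were lower in trisomic males by any amount, with a median of -0.35. The share was 59.4% among all genes of the minimum level, which only tud and Rbp9 of this list reached. Among the genes of low level, bgcn stood at 13.9 and 9.64 CPM (-0.49), spn-E at 8.36 and 4.72 CPM (-0.71) and AGO3 at 6.92 and 3.50 CPM (-0.82). The germ cell genes vas (1.61 to 3.20 CPM, 0.69) and bam (1.41 to 0.891 CPM, -0.35) were low in both male groups, at levels comparable to the pseudocount of 1. The 6 genes of somatic testis cells summed to 57.8 CPM in normal and 75.03 CPM in trisomic males, and to 51.0 and 80.0 CPM in females, most of it from Fas3, and tj lay below 1 CPM throughout. The part of cell numbers in the lower level of the male-limited genes was not tested.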

How the data were processed

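Per the file headers, the authors averaged the replicates of each group, and the CPM values were normalized by the authors to a library total before deposit, since each deposited column sums to 1000000 over the 2 tables. TopHat, HTSeq and build dm3 are named in the submitters' processing notes, with no versions. The 22738 rows are transcript models, averaged here to 1 value per gene. The lowest values of each column were whole combinations of the steps of 4 libraries (tolerance 1e-06 CPM, 100% of 170 to 654 values), which gives 53.7 to 86.6 times 1000000 counts per library over all rows, a gene with several models counting more than once. In each column 373 to 645 rows share a single higher value (2.22 CPM in normal females), which no row of a member carries. The treatment of zeros, aligner settings and annotation have no description in the sources used here.

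Changes are log2 of CPM plus 1. With 1 mean per group, no test was possible, and 1.5-fold was used as a size. Names, exons and gene order came from annotations of another release, so no coordinates are given. The steps were tested on simulated data. The members and lists were chosen with earlier results of these data known, and the role groups, the depth estimate and the choice on both karyotypes after their values were seen. Genes were named by a rule: the 10 highest, the extremes of change, those at the threshold, list members and the highest in females; the noncoding RNAs, neighbours, low-level list genes, Hsp60B and further members within 1.5-fold were named after their values were seen. Python 3.11.15, numpy 2.4.6 and pandas 2.3.3 were used.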

Additional observations from a re-analysis of the deposited data

Results flagged for a closer look

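On the log2(CPM + 1) scale, 5 of the 233 genes differed at least 1.5-fold between karyotypes in opposite directions in the 2 sexes. They were higher in trisomic females and lower in trisomic males. These are all 5 members at least 1.5-fold higher in trisomic females on that scale, against 15.3% of all genes of the minimum level. At least 1.5-fold lower in trisomic males were 29.5% of those genes, and the share with both is not given here. As a plain ratio 112 members were at least 1.5-fold higher in trisomic females, so the count of 5 depends on the pseudocount. Whether the sexes differ was not tested, as each group is a single mean. CG15286 on 2L stood at 0.201 and 2.61 CPM in normal and trisomic females, against 42.8 and 25.8 CPM in males, so that its log2 difference in males was less than that in females by a difference of -2.30. CG17470 on 2L stood at 0.373 and 2.49 CPM in females and 63.6 and 31.1 CPM in males (difference -2.36). eIF4E-3 stood at 0.155 and 1.04 CPM in females and 52.4 and 17.5 CPM in males (-2.35), and CG9279 at 1.41 and 3.17 CPM in females and 79.0 and 29.6 CPM in males (-2.18). roX1 stood at 13.1 and 22.4 CPM in females and 506 and 285 CPM in males (-1.55). The female values of eIF4E-3, CG15286 and CG17470 lie under the value of 2.81 CPM that 608 rows of the trisomic female column share. CG9279 and CG15286 overlap another gene on the same strand, and roX1 overlaps ec on the other strand.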

How the results depend on the processing

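Chosen in trisomic larvae, the set had 34 genes, 24 of them at least 1.5-fold lower in trisomic males, a median change of -1.12, 1 X gene and a 2L difference that turned to -0.31, from 11 and 22 genes. A minimum of 20 CPM left 124 genes, 113 of them lower and 9 on the X. The choice on both karyotypes, added after the data were seen, left 130 genes, 119 lower and 9 on the X. With a pseudocount of 0.5, 101 of 325 genes reached 32-fold in trisomic larvae in place of 33, and with none, added after the data were seen, 222 of the 233. Centring on 2R, 3L and 3R genes gave a median of -1.19. No minimum (234 genes), the largest row of a gene (238), 16-fold (342) and Mst genes kept (242) moved no result by over 0.1 (log2) or 1.5 times. Setting the shared value to 0 also left 233 genes. No row of a member carries that value, so this setting could change no member's level. No paired analysis was possible because each group is a single mean, so no replicate could be left out. With no pseudocount the other results kept their size (median -1.55). Depth limits the female values, at a median of 10.9 and 19.3 reads per library.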

Other observations

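Genes of lesser sex bias were set beside the male-limited set. Among genes of the minimum level, the 148 genes with a sex difference of 3 to 5 in normal larvae had a median log2 difference of -1.20 in trisomic males, the 198 genes with a difference of 1 to 3 one of -0.72, and the 5687 genes within 1 of equality one of -0.11, while the 33 genes higher in females by more than 1 had one of 1.14. Binned by the sex difference in trisomic larvae instead, the 313 genes from 3 to 5 had a median of -1.40, the 138 genes from 1 to 3 one of -0.91 and the 36 genes of at least 5 one of -1.12, and the 26 genes higher in females by more than 1 also one of -1.12. Each binning shares a male group with the change it is set against. The 2 orders are descriptions of group means, and neither was tested.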
